A study of Mus musculus with 10 samples.

Results

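Cytochrome P450 genes (symbols that start with Cyp and a digit) encode haem enzymes that oxidise lipids, hormones and foreign compounds. All 100 protein-coding genes of this kind on chromosomes 1 to 19 of the mouse GENCODE annotation (release M21, mm10 build) were taken, out of 20807 protein-coding genes on these chromosomes, by symbol and place in the annotation alone, although earlier results of these data were known when this gene family was picked. The cells were F123, a mouse embryonic stem cell line from an F1 cross of Mus musculus castaneus and S129/SvJae. They were grown with LIF on irradiated CF1 embryonic fibroblasts as feeders and passaged once without feeders before harvest. Nothing was treated or compared in these cells, so the report describes 1 state of 1 line. The 2 assays were ChIP-seq for H3K4me3, trimethylated lysine of histone H3 that marks the starts of active and poised genes, and ATAC-seq, in which the transposase Tn5 cuts into open chromatin. Each assay had 2 replicates, and the deposited files hold 1 peak list per assay that stands for both, so no value below has a spread between replicates and no test was made. The lists held 33487 H3K4me3 peaks with a median width of 1140 bp and 179109 ATAC-seq peaks with a median width of 261 bp. The read depth behind them is unknown. A missing peak therefore says that no peak was called at the authors' settings, and nothing here measures RNA.

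P450 enzymes fall into a group with fixed tasks in the body and a group that handles a changing chemical environment. The first makes cholesterol, bile acids, steroid hormones and active vitamin D, or destroys retinoic acid, and its genes mostly sit alone in the genome. The second is rich in liver, is often induced by the compounds it removes, and has grown by tandem duplication into arrays of similar genes. Retinoic acid drives pluripotent cells to differentiate, so its clearing enzymes are well known in embryos. The chromatin of the starts is described here for both groups in cells that are not liver, adrenal or gonad. Of 10 embryonic stem cell marker genes, 9 had an H3K4me3 peak within 2 kb of the start, among them Pou5f1, Sox2 and Nanog. Esrrb had an ATAC-seq peak alone. Of 10 hepatocyte markers, 3 had an H3K4me3 peak (Apoa1, Apob and F2, but not Alb or Ttr). The share over all protein-coding genes was 67.7%. That share lay inside the Wilson interval of the stem cell markers (59.6 to 98.2%) and above that of the hepatocyte markers (10.8 to 60.3%).

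The sequences below are the mm10 genome (RefSeq GRCm38.p6, strain C57BL/6J), 250 bases before to 50 bases after a GENCODE start, written 5′ to 3′ on the strand of the gene with every CpG dinucleotide in capitals. Cyp51 and Cyp26a1 stand for the sterol and retinoid enzymes with strong or wide H3K4me3 peaks. The next pair comes from 1 array on chromosome 15, where Cyp2d22 had both kinds of peak and Cyp2d26 had none, and Cyp3a11, a major xenobiotic-metabolising enzyme of mouse liver, also had none. For Cyp26b1 the window of an internal transcript start is shown, since its peak lay there and not at the gene start.
Cyp51 (chr5:4104697-4104996, minus strand): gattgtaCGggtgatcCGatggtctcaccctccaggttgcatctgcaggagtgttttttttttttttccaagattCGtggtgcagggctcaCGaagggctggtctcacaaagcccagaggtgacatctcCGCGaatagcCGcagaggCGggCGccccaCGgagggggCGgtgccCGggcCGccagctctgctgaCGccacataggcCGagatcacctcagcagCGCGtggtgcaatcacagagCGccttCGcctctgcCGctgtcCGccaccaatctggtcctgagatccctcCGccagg
Cyp26a1 (chr19:37697548-37697847, plus strand): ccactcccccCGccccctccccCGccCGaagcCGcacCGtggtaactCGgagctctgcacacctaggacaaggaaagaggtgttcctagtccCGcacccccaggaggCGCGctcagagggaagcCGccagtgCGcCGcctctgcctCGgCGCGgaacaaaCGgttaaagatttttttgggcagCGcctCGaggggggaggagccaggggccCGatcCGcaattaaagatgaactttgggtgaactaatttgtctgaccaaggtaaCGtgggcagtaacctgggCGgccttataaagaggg
Cyp2d22 (chr15:82380211-82380510, minus strand): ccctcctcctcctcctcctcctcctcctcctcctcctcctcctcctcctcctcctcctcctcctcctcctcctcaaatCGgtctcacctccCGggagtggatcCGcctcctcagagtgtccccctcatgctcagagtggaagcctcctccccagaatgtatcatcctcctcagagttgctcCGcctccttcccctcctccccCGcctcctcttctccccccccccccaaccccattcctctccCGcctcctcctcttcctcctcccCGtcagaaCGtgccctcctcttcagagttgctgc
Cyp2d26 (chr15:82794245-82794544, minus strand): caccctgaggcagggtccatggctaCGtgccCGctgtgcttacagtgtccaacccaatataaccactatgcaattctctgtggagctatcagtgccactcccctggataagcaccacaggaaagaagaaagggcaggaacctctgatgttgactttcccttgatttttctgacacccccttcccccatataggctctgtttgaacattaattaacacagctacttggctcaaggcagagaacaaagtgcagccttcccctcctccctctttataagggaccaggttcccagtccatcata
Cyp3a11 (chr5:145879915-145880214, minus strand): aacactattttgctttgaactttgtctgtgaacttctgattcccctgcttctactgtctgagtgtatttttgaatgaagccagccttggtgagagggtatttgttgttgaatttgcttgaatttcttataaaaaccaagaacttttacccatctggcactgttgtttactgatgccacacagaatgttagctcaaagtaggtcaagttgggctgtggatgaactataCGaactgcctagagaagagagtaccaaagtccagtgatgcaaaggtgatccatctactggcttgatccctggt
Cyp26b1 internal start (chr6:84588589-84588888, minus strand): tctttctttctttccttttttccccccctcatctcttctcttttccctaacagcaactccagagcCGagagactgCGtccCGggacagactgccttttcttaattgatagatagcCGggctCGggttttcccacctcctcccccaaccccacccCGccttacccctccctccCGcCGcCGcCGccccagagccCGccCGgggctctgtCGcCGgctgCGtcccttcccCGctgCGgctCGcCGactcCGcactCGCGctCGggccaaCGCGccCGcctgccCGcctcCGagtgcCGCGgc

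The Cyp51 and Cyp26a1 windows held 22 CpG each. Those of Cyp2d22, Cyp2d26 and Cyp3a11 held 8, 2 and 1, and the internal Cyp26b1 window held 30. The first part of the Cyp2d22 window is a run of the triplet CCT. Cyp26a1 also carries, just before its start, a direct repeat of the type that retinoic acid receptors bind, with 5 bases between its copies. It reads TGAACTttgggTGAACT on the strand of the gene (chr19:37697776-37697792, from 22 to 6 bases before the start), where the capitals mark the repeated hexamer, and on the opposite strand it is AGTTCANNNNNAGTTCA. That letter string, chosen after the Cyp26a1 window had been read and searched on both strands, occurred in the same window of 2 of the 20807 genes, or 0.00961%, and Cyp26a1 was the only P450 gene among them. A match of letters is a description and not a measured binding site.

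Peaks were called at a smaller share of P450 starts than of protein-coding starts as a whole. An H3K4me3 peak lay within 2 kb of the start of 27 members, or 27.0% (95% Wilson interval 19.3 to 36.4%), where the share over all protein-coding genes was 67.7%. An ATAC-seq peak lay within 2 kb of 41 members, or 41.0% (31.9 to 50.8%), against 75.9% of all genes. Every member with H3K4me3 also had an ATAC-seq peak, so 27 had both (67.2% of all genes did). A further 14 had ATAC-seq alone (1814 of all 20807 genes did) and 59 had neither (23.6% of all genes). No member had H3K4me3 without an ATAC-seq peak, which was also rare over all genes, at 105. A peak counted when at least 1 bp of it lay within 2 kb of the gene start. The intervals cover counting error only, and neighbouring genes of an array are copies of each other and not independent.

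The named enzymes and the clustered families differed in the share of marked starts. Over the 5 lists of named enzymes (sterol and bile acid, retinoic acid, vitamin D, steroid hormone and the Cyp1 family), 12 of 22 members had an H3K4me3 peak, or 54.5% (34.7 to 73.1%). The Cyp1 enzymes act on foreign compounds, and without them the count was 11 of 19, or 57.9%. Of 72 members of the clustered families, 11 had one, or 15.3% (8.75 to 25.3%). The order of these shares was the same under 8 of 8 other settings, although a bound of 5 on −log10 q left both shares unchanged. For ATAC-seq the counts were 14 of 22 (63.6%) and 22 of 72 (30.6%). The 67.7% of all genes lay inside the interval of the named enzymes and above that of the clustered families. The clustered list is made of whole subfamilies, so 6 of its genes lie outside the runs of at least 3 neighbouring starts described below. Of these, Cyp4f13 and Cyp4f14 are still neighbours of each other on chromosome 17. The list also takes in some subfamilies that are not known for liver alone, such as Cyp2f, Cyp2g, Cyp2j, Cyp2t, Cyp4b, Cyp4f and Cyp4x.

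**Figure D1:**
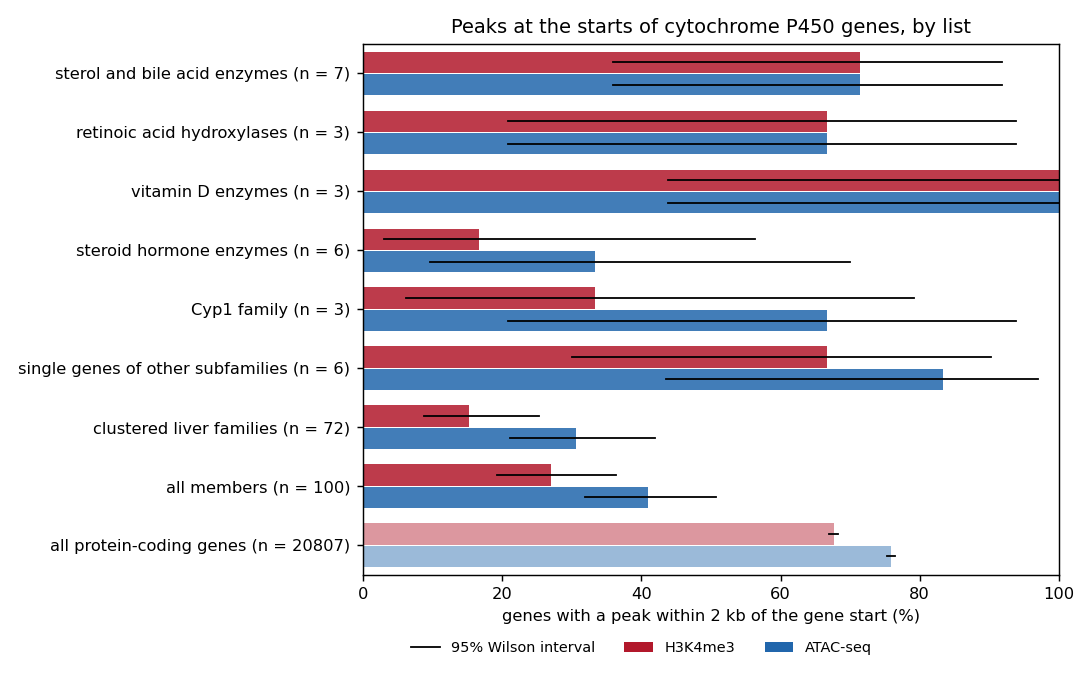
Share of genes with an H3K4me3 peak (red) or an ATAC-seq peak (blue) within 2 kb of the gene start, in percent, for each list of P450 genes, for all 100 members and for all 20807 protein-coding genes (paler bars); black lines are 95% Wilson intervals. The clustered families had 15.3% and 30.6%, and the vitamin D list, with 3 genes, had 100.0% for both.

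The sterol list held the strongest H3K4me3 peak of any P450 gene. Cyp51, lanosterol demethylase of cholesterol synthesis and the most conserved P450, had a peak at chr5:4102509-4105146 that covered its start, 2638 bp in width. Its fold enrichment was 49.7 at a −log10 q of 709. Fold enrichment is a ratio over the peak caller's background, as the authors deposited it. Among the 14079 protein-coding genes with a peak, the Cyp51 value stood at percentile 91.1, and Cyp51 was the only member above the median of those genes, 30.9. The 27 members with a peak had a median of 14.7. Of 17 cholesterol synthesis genes that are not P450, 16 had both peaks (94.1%, interval 73.0 to 99.0%), beside 67.2% of all genes. Their folds ran from 22.4 (Tm7sf2) to 50.3 (Hmgcs1), and Pmvk had neither peak within 2 kb of its gene start, the only start read for it.

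The enzymes that turn cholesterol into oxysterols and bile acids split. Cyp46a1, the cholesterol hydroxylase known from neurons, had 2 H3K4me3 peaks within 2 kb, the stronger with a fold of 28.1 and 845 bp wide, at a start with 34 CpG, the most of any member. Cyp27a1, the mitochondrial sterol hydroxylase, had a fold of 25.3 over 1773 bp. Cyp39a1, an oxysterol hydroxylase, had 23.8 over 2289 bp, but the start of Slc25a27 lies 211 bp away and the peak cannot be assigned to either gene alone. Cyp7b1, the oxysterol hydroxylase of the alternative bile acid pathway, had 18.0 over 1484 bp. The other two enzymes act in hepatocytes and had no peak of either kind. For Cyp7a1, the rate-limiting enzyme of classical bile acid synthesis, the nearest H3K4me3 peak was 83409 bp and the nearest ATAC-seq peak 4538 bp from the start. For Cyp8b1, which directs synthesis to cholic acid, these distances were 57373 and 8634 bp.

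The retinoic acid hydroxylases had wide H3K4me3 peaks of modest enrichment. Cyp26a1, the main retinoic acid hydroxylase of the early embryo, had a peak at chr19:37695344-37700503, 5160 bp wide, which is percentile 97.4 of widths, with a fold of 20.9, percentile 25.9. It covered the start and held 3 ATAC-seq peaks within the window. Its neighbour Cyp26c1, with a start 12217 bp away, had a separate peak 3462 bp wide with a fold of 8.89, and 7367 bp without an H3K4me3 peak divided them. Both Cyp26c1 ATAC-seq peaks lay inside the gene, the nearer one 814 bp past the start. The peaks over 3000 bp among the 27 members were at Cyp26a1, Cyp26c1, Cyp24a1 and Cyp1b1, 4 in all, whereas 21.9% of all genes with a peak had one that wide.

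Cyp26b1, which clears retinoic acid in limb bud, gonad and brain, changed class with the start that was used. At its annotated gene start (chr6, 84593908) there was no peak of either kind within 2 kb, and the nearest H3K4me3 peak was 3487 bp away. That peak, at chr6:84583108-84590421, was 7314 bp wide, percentile 99.6 of widths, with a fold of 12.1, percentile 11.9, and 9 ATAC-seq peaks overlapped it. It covered 3 further protein-coding transcript starts of Cyp26b1, which lie from 5270 to 6228 bp inside the gene. The CpG counts followed the same line, with 5 at the gene start and 30, 18 and 28 at the 3 internal starts. So the peak at the internal starts was wider than that of any member at its gene start.

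Of 17 retinoid pathway genes outside the P450 family, 14 had both peaks (82.4%, interval 59.0 to 93.8%, which holds the 67.2% of all genes) and Aldh1a1, Rarb and Stra6 had neither. Rdh10, which makes retinal, had a fold of 46.1 over 6927 bp. The folds of the nuclear receptors that retinoids bind ran from 10.1 at Rxrg to 44.5 at Rxrb. The retinal dehydrogenases that make retinoic acid differed, since Aldh1a2 and Aldh1a3 had folds of 24.1 and 19.7.

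**Figure D2:**
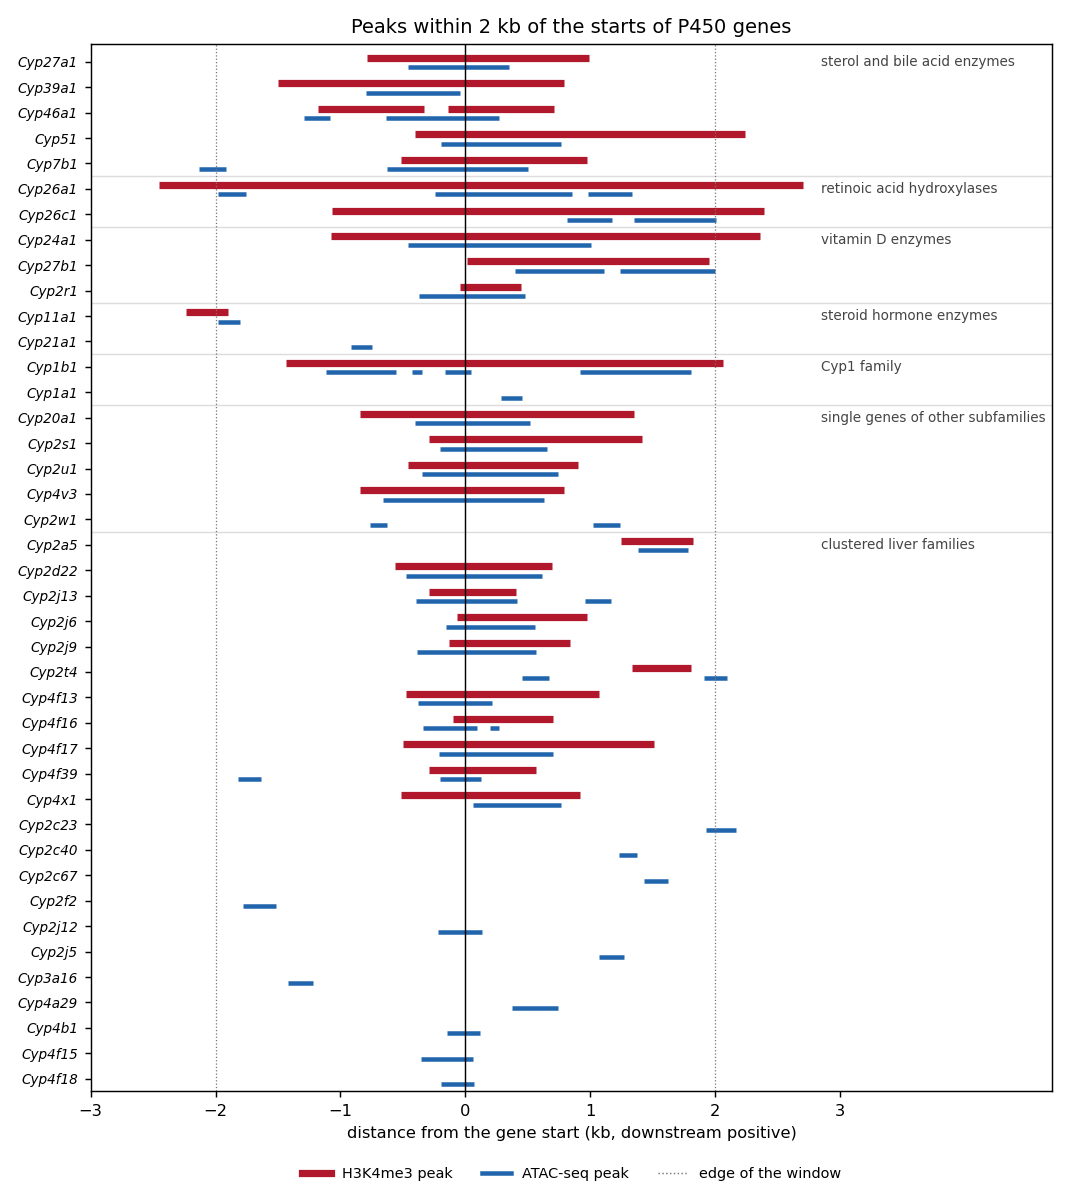
H3K4me3 peaks (thick red) and ATAC-seq peaks (thin blue) that reach within 2 kb of the start of the 41 P450 genes with a peak, against distance from the gene start in kb, downstream to the right; dotted lines are the window's edges and grey lines divide the lists. Cyp26a1 has the widest H3K4me3 peak, 5160 bp, and Cyp11a1, Cyp2a5 and Cyp2t4 have small ones away from the start.

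All 3 vitamin D enzymes had both peaks, none of them strong. Cyp24a1, which inactivates vitamin D, had a fold of 14.7 over 3436 bp. That peak also covered the start of Pfdn4, 717 bp away, and cannot be assigned to either gene alone. Cyp27b1, which makes the active hormone in kidney, had 10.1 over 1938 bp, and its peak began 12 bp after the start, at a window with only 2 CpG. Cyp2r1, the main hydroxylase of vitamin D in liver, had 7.82 over 493 bp, although its window held 22 CpG, as many as Cyp51. The vitamin D receptor gene Vdr had a fold of 19.5.

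Steroid hormone enzymes were the least marked of the 5 lists, at 1 of 6. Cyp11a1, which cleaves the side chain of cholesterol as the first step of steroid synthesis, counted only through a peak of 340 bp with a fold of 4.30 whose near edge was 1898 bp upstream of the start, just inside the window. Cyp21a1, the steroid hydroxylase of the adrenal cortex, had an ATAC-seq peak of 165 bp alone. The 4 further enzymes, which act in the synthesis of glucocorticoids, mineralocorticoids and sex steroids, had no peak of either kind within 2 kb of the gene start. They are Cyp11b1, Cyp11b2 (aldosterone synthase), Cyp17a1 and Cyp19a1 (aromatase). Their nearest H3K4me3 peaks were 88095, 92615, 16183 and 17909 bp away. Cyp19a1 had 6 CpG in its window and was the only member with more than 5 that lacked H3K4me3. No protein-coding transcript of Cyp19a1 begins at that gene start, and its coding starts, 74588 and 74668 bp further in, each had an ATAC-seq peak within 2 kb and no H3K4me3. A second coding start of Cyp17a1, 198 bp from the first, also had an ATAC-seq peak within 2 kb. Of 6 marker genes of adrenal and gonad steroid cells, 3 had H3K4me3 (Fdx1, Inha and Nr5a1). The interval of that share, 18.8 to 81.2%, holds the 67.7% of all genes. Star had ATAC-seq alone and Hsd3b1 and Mc2r had neither.

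The Cyp1 family, whose enzymes oxidise polycyclic aromatic compounds under control of the aryl hydrocarbon receptor, had 1 marked gene start. At Cyp1b1 the H3K4me3 peak had a fold of 15.5 over 3501 bp, with 4 ATAC-seq peaks, the most of any member. Cyp1a1 had an ATAC-seq peak of 169 bp alone at its gene start, and Cyp1a2, which starts 4225 bp from Cyp1a1 on the other strand, had neither, with its nearest ATAC-seq peak 4514 bp away. Cyp1a1, like Cyp26b1, had its H3K4me3 peak further in. A second protein-coding transcript starts 9685 bp downstream, and the peak over it, at chr9:57696066-57697686, was 1621 bp wide with a fold of 14.8. Its window held 4 CpG and a TATAAA, against 1 CpG and no TATAAA at the gene start. The receptor's core motif TNGCGTG, searched on both strands, was in the window of 2 members, or 2.0%, against 5.92% of all protein-coding genes. Among genes without H3K4me3 the shares were 2.74% of members and 1.87% of all genes. Cyp1a1's gene start was 1 of the 2, but the window of its internal start, where the H3K4me3 peak lay, did not hold the motif. Ahr and its partner Arnt had folds of 39.5 and 43.7.

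Of 6 single genes of other subfamilies, 4 had both peaks (66.7%, beside 67.2% of all genes). Cyp2u1, a fatty acid hydroxylase, had a fold of 28.6 over 1361 bp, Cyp20a1, an orphan enzyme, had 20.9 over 2199 bp, and Cyp4v3, a fatty acid hydroxylase, had 20.0 over 1633 bp. Cyp2s1, an extrahepatic enzyme, had 14.4 over 1704 bp. The starts of noncoding genes lie close to Cyp2u1 (584 bp) and Cyp2s1 (259 bp). Cyp2w1, an orphan enzyme, had ATAC-seq alone, with a widest peak of 216 bp. Cyp2e1, which oxidises ethanol, was the 1 gene of this list with neither, 23542 bp from the nearest H3K4me3 peak. It is named after its value was seen.

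**Figure D3:**
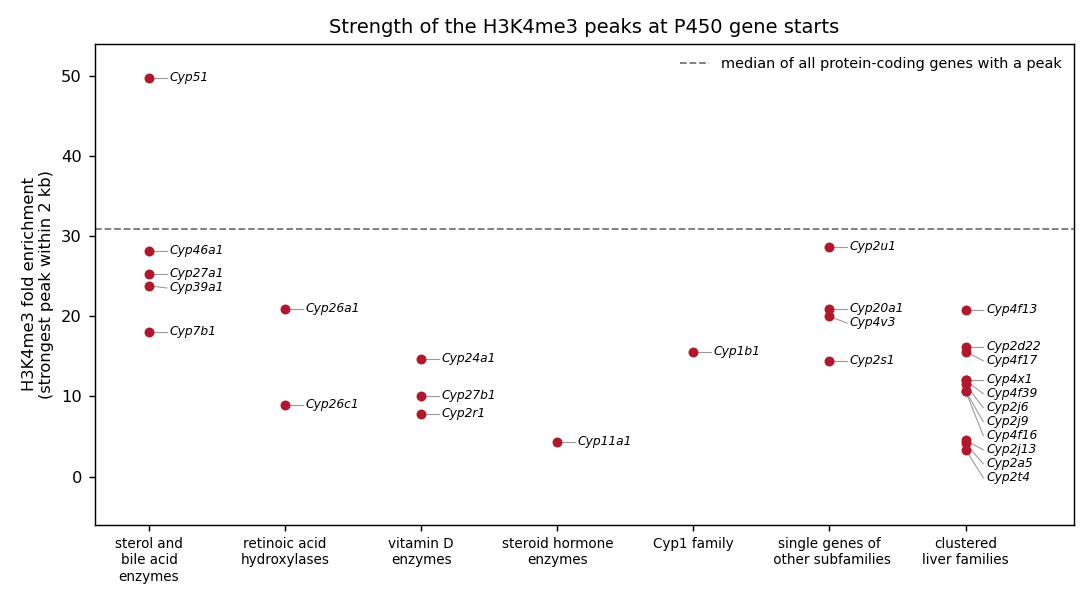
Fold enrichment of the strongest H3K4me3 peak within 2 kb of the gene start for the 27 marked P450 genes, by list; each point is 1 gene and the dashed line is the median of all 14079 protein-coding genes with a peak, 30.9. Only Cyp51, at 49.7, lies above it, and the clustered families run from 3.38 to 20.8.

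Within the clustered families the marked genes were unevenly spread over the subfamilies. The Cyp4f and Cyp2j subfamilies supplied 4 and 3 of the 11. No Cyp2b (5 genes), Cyp2c (15), Cyp3a (9) or Cyp4a (8) start had H3K4me3, and those subfamilies include the classical drug, steroid and fatty acid metabolising enzymes of liver. Cyp2a and Cyp2d had 1 each, of 4 and 8. ATAC-seq peaks lay at 6 of 9 Cyp4f and 5 of 8 Cyp2j starts, but at 3 of 15 Cyp2c, 1 of 9 Cyp3a and 1 of 8 Cyp4a starts.

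Among the Cyp4f genes, whose enzymes hydroxylate leukotrienes and fatty acids, Cyp4f13 had the strongest peak of any clustered gene, with a fold of 20.8 over 1544 bp. Cyp4f17 had 15.6 over 2010 bp, Cyp4f39 had 12.0 over 859 bp and Cyp4f16 had 10.7 over 797 bp. All 4 of these peaks covered the start. Among the Cyp2j genes, which encode epoxygenases of arachidonic acid, Cyp2j6 and Cyp2j9 had folds of 11.5 and 10.7, and Cyp2j13 had 4.53. Cyp2d22 had 16.2 over 1253 bp, at the edge of an array whose 7 other genes had no peak of either kind. Cyp4x1 had 12.1 over 1435 bp, a peak it shares with the antisense gene Cyp4x1os, which starts 449 bp away.

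The remaining clustered genes counted as marked had weak peaks past the start. Cyp2a5, a coumarin hydroxylase, had a fold of 4.15 in a peak of 582 bp that began 1244 bp downstream. Cyp2t4 had 3.38 in a peak of 469 bp that began 1337 bp downstream, and it was the only one of the 27 without an ATAC-seq peak overlapping the H3K4me3 peak. Cyp11a1, Cyp2a5 and Cyp2t4 were the members lost when the window was narrowed to 1 kb, which left 24 (66.4% of all genes). Just outside the window lay Cyp4a31 and Cyp2d9, with H3K4me3 peaks 2360 and 2369 bp away.

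Open chromatin without H3K4me3 was seen at 11 of the 61 clustered genes that lacked H3K4me3. Over all protein-coding genes it was seen at 1814 of the 6728 that lacked it, so it is no trait of the clustered genes. Only 4 of the 11 had the ATAC-seq peak over the start itself, namely Cyp4f15 (413 bp wide), Cyp2j12 (352 bp), Cyp4f18 (267 bp) and Cyp4b1 (261 bp). At Cyp4a29 a peak of 365 bp began 377 bp past the start. At Cyp2f2, known from the airway, a peak of 262 bp lay 1518 bp from the start, and at Cyp2c23, Cyp2j5 and Cyp3a16 the peaks were 1925, 1067 and 1218 bp away. These distances are of the order of the window and do not tie the peak to the start. The 50 clustered genes with neither peak were the largest class.

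Grouping the members by position in an array gave a similar split, since it sorts nearly the same genes. Member starts that follow each other at up to 200 kb form 8 runs of at least 3, with 67 members. Inside the runs 11 had H3K4me3 (16.4%) and outside them 16 of 33 had (48.5%). All run members apart from Cyp2s1 belong to the clustered families. Of the 6 clustered genes outside runs, 1 had H3K4me3 (16.7%, interval 3.01 to 56.4%). That gene was Cyp4f13, a neighbour of Cyp4f14. Array position and subfamily cannot be told apart with these genes, and the part of either was not tested. The Cyp2c run, 14 genes over 1.18 Mb of chromosome 19, held 1 H3K4me3 peak in all, or 0.847 per Mb, where the autosomes average 13.2 per Mb. That peak had a fold of 3.29 and no ATAC-seq peak under it. The run was not empty of open chromatin, with 43 ATAC-seq peaks, 36.4 per Mb against 70.2 for the autosomes. The Cyp3a run of 8 genes was close to it, with 2.6 H3K4me3 peaks per Mb.

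The Cyp4f run on chromosome 17 was the opposite, with 13 H3K4me3 peaks in 0.251 Mb, or 51.9 per Mb. Of these, 10 lay more than 2 kb from any member start, with folds from 2.29 to 11.3, and 12 of the 13 overlapped an ATAC-seq peak. The Cyp2d run had 7 H3K4me3 peaks, 6 of them away from member starts with a median fold of 3.29, yet only 8 ATAC-seq peaks, 18.9 per Mb. In the run from Cyp2s1 to Cyp2a4 the peaks away from member starts reached a fold of 22.3. At the 2 ends of the 8 runs, 6 of 16 starts had H3K4me3 (37.5%), against 5 of 51 starts inside (9.8%). The 6 were Cyp2j13, Cyp4x1, Cyp2s1, Cyp2t4, Cyp2d22 and Cyp4f39, and this division was made after the values were seen. Of these, Cyp2s1, Cyp4x1 and Cyp2t4 are the sole members of their subfamilies.

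**Figure D4:**
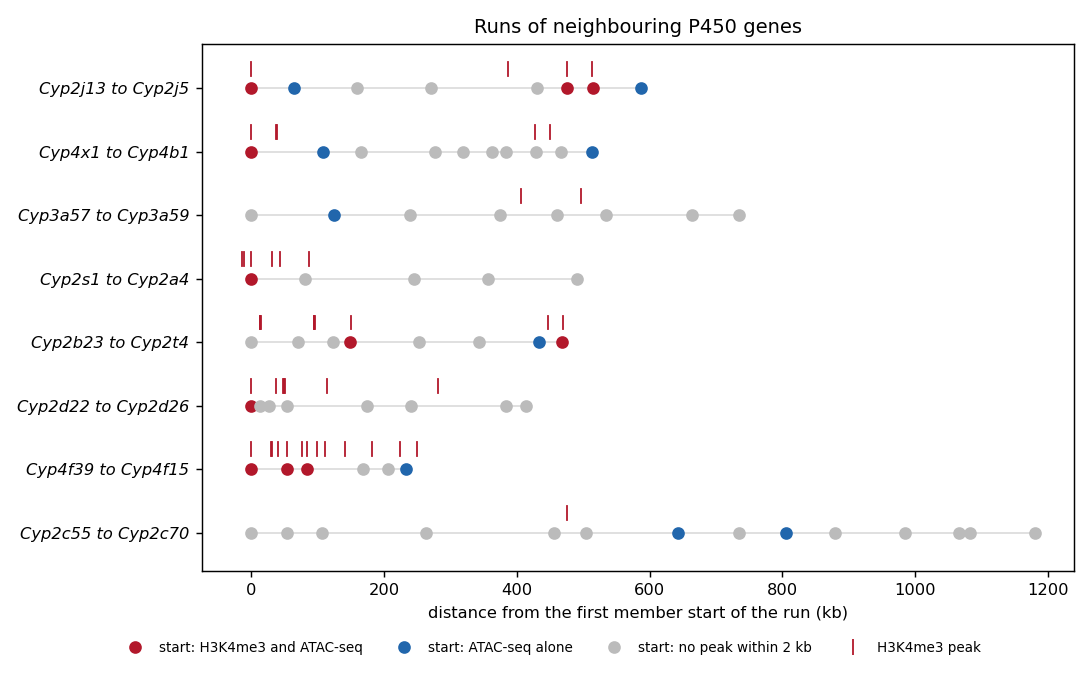
The 8 runs of neighbouring P450 genes, each drawn from its first member start, in kb; circles are member starts coloured by the peaks within 2 kb (red both, blue ATAC-seq alone, grey neither) and red ticks are all H3K4me3 peaks in the run. The Cyp2c run has 1 tick over 1.18 Mb and the Cyp4f run 13 over 0.251 Mb.

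The 73 members without H3K4me3 within 2 kb lay a median of 57373 bp from the nearest H3K4me3 peak, and 27 of them, all clustered, lay over 100 kb away. The median over all 6728 protein-coding genes without one was 46988 bp, and 2241 of those lay over 100 kb away, so such distances are no trait of P450 genes.

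Members with and without H3K4me3 differed in the CpG content of the start. With 5 CpG or fewer in the 300 bases, 9 of 81 members had H3K4me3 (11.1%). With more than 5, 18 of 19 had it (94.7%). Over all protein-coding genes these shares were 19.7 and 92.3%, so the share was lower for members than for all genes in the CpG-poor class. Of members 81.0% had 5 CpG or fewer, and of all genes 34.0%. The part of CpG content in the members' share was not tested. Of the clustered genes 68 of 72 did, and all 4 of the others (Cyp2d22, Cyp4f17, Cyp4f39 and Cyp4x1) had H3K4me3. The bounds of these classes were set with the results known.

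By smaller classes, 3 of 49 members with 0 to 2 CpG had H3K4me3 (6.12%) and 10.0% of all such genes did. With 3 to 5 CpG it was 6 of 32 (18.8%), against 33.1%. With 6 to 10 it was 6 of 7 (85.7%), against 69.1%, and with 11 or more all 12 had it, against 97.1 and 99.3% in the upper classes. The marked genes with 5 CpG or fewer were Cyp26c1, Cyp27b1, Cyp2a5, Cyp2j6, Cyp2j9, Cyp2j13, Cyp2t4, Cyp4f13 and Cyp4f16. Of these only Cyp4f13 had a fold above 12.0.

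**Figure D5:**
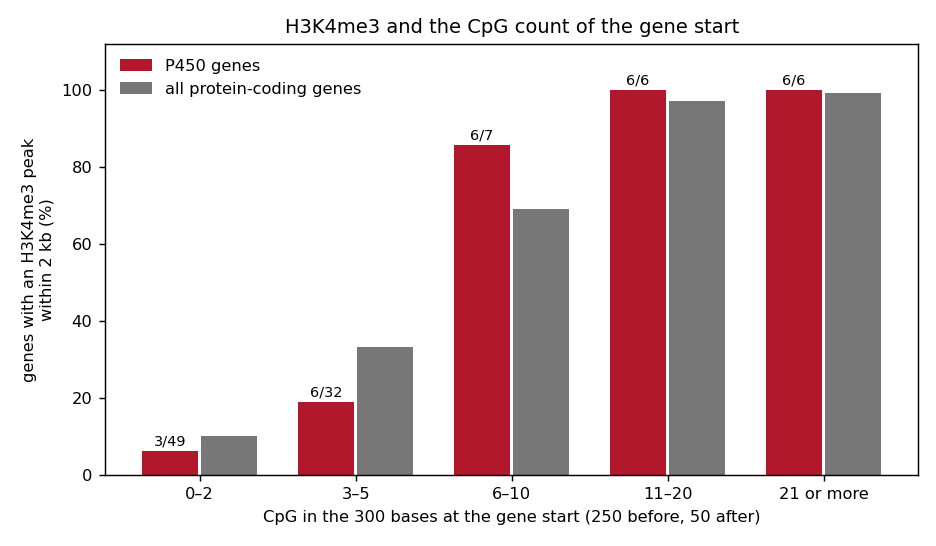
Share of genes with an H3K4me3 peak within 2 kb, in percent, by the number of CpG in the 300 bases at the gene start, for P450 genes (red, with marked genes over all genes in the class) and for all protein-coding genes (grey). Both rise from the lowest class (6.12% and 10.0%) to the highest (100.0% and 99.3%).

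The letters TATAAA, searched anywhere in the window and so not a measure of a TATA box, were found on either strand in the windows of 2 of 27 members with H3K4me3 (7.41%) and of 31 of 73 without (42.5%), and among all genes the shares were 7.42 and 23.8%. Cyp26a1 and Cyp2a5 were the pair with both. CCAAT was present in 50.0% of members and 38.6% of all genes, and hardly differed between members with H3K4me3 (51.9%) and without (49.3%).

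Reads from near-identical copies can match several places in the genome. Of the clustered genes only 4 shared at least 50% of the 50-base words of their 4 kb window with another member. They were the pairs Cyp3a41a with Cyp3a41b (68.5%) and Cyp4a12a with Cyp4a12b (58.0%), and none had a peak. Without them the clustered share with H3K4me3 was 16.2%. Among the 15 clustered genes that shared no such word, 4 had H3K4me3 (26.7%) and 8 had ATAC-seq (53.3%). The part of read mapping in these shares was not tested.

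All 7 genes for the electron donors of P450 enzymes had both peaks (interval 64.6 to 100.0%, with 67.2% over all genes). The strongest peak within 2 kb of the gene start of Por, the reductase that serves the microsomal P450 enzymes, had a fold of only 3.94 over 310 bp. Internal transcript starts of these genes were not read one by one. Fdx1 and Fdxr, donors to the mitochondrial enzymes, had 37.1 and 24.2. Of 15 regulators of P450 genes, 11 had H3K4me3 (73.3%, near the 67.7% of all genes), with Srebf2, a transcription factor that drives cholesterol synthesis genes, at 38.4. Not among them were the nuclear receptors for drugs, Nr1i2 (PXR) with ATAC-seq alone and Nr1i3 (CAR) with neither, and Hnf4a with neither. Other detoxification families (conjugating enzymes, flavin monooxygenases and carboxylesterases) had H3K4me3 at 8 of 62 starts (12.9%). Of these, 6 were in the Gstm family, and 0 of the 19 carboxylesterase genes had it.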

How the data were processed

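The 100 members and all lists were chosen with earlier results of these data known. For H3K4me3, the authors ran the default ENCODE pipeline for histone ChIP-seq. Its aligner, its peak threshold and the use of the input are not given in the sources used here. The deposited columns give each peak's position and summit, a fold enrichment (a ratio over the peak caller's background) and −log10 values of p (not used) and q. For ATAC-seq, they aligned reads with Bowtie 1.1.2, shifted read ends by 4 bp to allow for Tn5, and called peaks with MACS2 (2.1.1.20160309), and peaks of the pooled reads that both replicates held were kept with bedtools (2.27.1). That list holds positions alone. Both are on mm10, and reads of a hybrid line were set against a C57BL/6J genome. PLAC-seq and input samples were not analysed here.

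Gene starts are the 5′ ends of GENCODE M21 genes, and named genes outside the P450 family were described at that start alone. A peak counted with 1 bp of overlap within 2 kb. Overlaps were computed in Python 3.11.15 (pandas 2.3.3, numpy 2.4.6, pysam 0.24.0), tested on simulated peaks and checked with bedtools 2.31.1, and 0 of 20807 windows differed. The strongest peak by fold in each window was described, and percentiles refer to the same peak of every protein-coding gene with one. The text names every member of the 5 lists, every other member with H3K4me3, and, of 12 other members with ATAC-seq alone, the 10 with the widest peak. Other distances, thresholds, starts and groupings were tried as alternatives. No test was made.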

Additional observations from a re-analysis of the deposited data

How the results depend on the processing

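Over 7 shares of genes and 56 alternatives, 49 values stayed within the main 95% interval and 7 left it, all 7 of them shares with an ATAC-seq peak. Some of the 49 could not move. The lowest −log10 q at a member was 6.94, so a bound of 5 removed none, and leaving out genes with shared words removed no named enzyme. The interval of the 22 named enzymes was also wide (34.7 to 73.1% for H3K4me3), so a value inside it says little. With a window of 5 kb the ATAC-seq share was 52.0% of all members and 86.4% of the 5 named lists (82.8% of all protein-coding genes). Where the peak had to cover the start it was 24.0% of members, 36.4% of the named lists and 16.7% of the clustered families (63.6% of all genes). A 1 kb window gave 20.8% of the clustered families (72.2% of all genes), and the widest 50% of ATAC-seq peaks gave 31.0% of members (71.2% of all genes). The count of members with H3K4me3 ran from 22 (−log10 q of at least 50) to 30 (5 kb). Starts of any protein-coding transcript added Cyp1a1 and Cyp26b1, which gave 29 members (69.9% of all genes). No paired analysis was possible because each list stands for both replicates, and for the same reason no replicate could be left out. Depth is unknown, so a missing peak may lie below the authors' threshold.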

Other observations

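Of 31 further genes with P450 symbols on the same chromosomes, 30 are pseudogenes and 1 is the antisense gene Cyp4x1os. H3K4me3 peaks lay within 2 kb of the starts of 3 pseudogenes, and ATAC-seq peaks within 2 kb of 10. Cyp4f41-ps, a transcribed pseudogene on chromosome 17, had a fold of 34.3 over 2384 bp, which is above every protein-coding P450 gene apart from Cyp51, and its peak did not reach within 2 kb of a member start. Its annotated start lies 18316 bp from that of Cyp4f13. Cyp4b1-ps2 and Cyp2d67-ps had folds of 5.01 and 4.58. These pseudogenes are named after their values were seen.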
